A study of Homo sapiens with 21 samples.

Results

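The circRNAs hsa_circ_85922 and hsa_circ_85923 are 2 of the 124082 circular RNAs counted in 21 libraries of human lung cell lines. They were taken by identifier, and they had been picked from the counts themselves, because both had reads in PC-9 cells and in osimertinib-resistant NCI-H1975 cells and none in NCI-H1975 cells without the resistance. Their presence and absence in those groups is therefore described here without a test. The choice did not use how their reads divide between them, or the size of level differences among the groups that hold them. It did require reads in osimertinib-resistant cells and was made with earlier results known. The level comparisons with that group are therefore not fully independent of the choice.

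A circular RNA (circRNA) forms when the splicing machinery joins the end of an exon to the start of the same or an upstream exon. The closed molecule has no free end and is resistant to exonucleases, which makes many circRNAs long-lived. It is recognised in sequencing by reads that cross the back-splice junction. A gene can give rise to several circRNAs through different junctions, and some circRNAs bind microRNAs or proteins, but most have no known function. The table names its circRNAs by numbers of its own, with no host gene, position or sequence, so no gene, role or sequence is given for either circRNA here, and 1 read counts 1 crossing of a junction.

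The groups that hold the pair are NCI-H1975 cells resistant to osimertinib and kept in 1 µM of it, PC-9 cells resistant to gefitinib and kept in 1 µM of it, and PC-9 cells without a resistance code. Both drugs inhibit the tyrosine kinase of the epidermal growth factor receptor (EGFR), and both lines are lung cancer lines with a mutant EGFR. The groups without it are NCI-H1975 cells transfected with FASN (fatty acid synthase) and NCI-H1975 cells transfected with the plasmid pCMV6, both under 50 µg/ml of G418, plain NCI-H1975 cells with neither code, and NL20, an immortalized, non-tumorigenic bronchial epithelial line. All were grown in the same medium with fetal bovine serum. Each of the 7 groups had 3 libraries, and the labels do not say whether these came from separate cultures or how the resistant lines were derived. The p-values therefore measure the spread between libraries, which may be technical. Library totals ran from 95808 to 203079 reads. Osimertinib-resistant replicate 2 stood apart with 15244 distinct circRNAs, against 23973 and 21841 in replicates 1 and 3 of its group, and the tested differences that use it are also given without it.

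hsa_circ_85923 was the more abundant of the pair. It had 92, 78 and 95 reads in osimertinib-resistant NCI-H1975 replicates 1 to 3, 80, 87 and 62 reads in gefitinib-resistant PC-9, and 55, 94 and 35 reads in PC-9. All 9 libraries of these groups held it, and none of the other 12 did. In each osimertinib-resistant library it was an abundant circRNA, ranking 112, 107 and 123 by reads in replicates 1 to 3. It ranked between 120 and 208 in the gefitinib-resistant PC-9 libraries and between 228 and 403 in the PC-9 libraries. In these bulk libraries, more cells holding a circRNA and more copies per cell cannot be told apart.

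hsa_circ_85922 had the same presence and absence at lower counts. Its reads were 24, 18 and 11 in osimertinib-resistant NCI-H1975, 17, 11 and 8 in gefitinib-resistant PC-9, and 5, 29 and 11 in PC-9. Here the 3 groups overlapped, also after scaling, when the lowest library was PC-9 replicate 1 with 51.6 CPM and the highest was osimertinib-resistant replicate 1 with 242.1 CPM. In total hsa_circ_85922 had 134 reads and hsa_circ_85923 had 678.

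Neither circRNA had a read in any FASN, pCMV6, plain NCI-H1975 or NL20 library. These 12 libraries held 1658008 reads, so that a count of 0 allows each circRNA a share of up to 0.000181% of them (3 counts, counting error only). In plain NCI-H1975, with 457466 reads, the limit was 0.000656%. Against this limit, the observed level of hsa_circ_85923 (265 reads) was 104-fold higher in osimertinib-resistant cells and that of hsa_circ_85922 (53 reads) 20.7-fold higher. The floor of 3 counts was taken over the group without reads, and the counting error of the 265 and 53 reads was left out. The same ratios against FASN cells were 81.5-fold and 16.3-fold, against pCMV6 cells 68.8-fold and 13.8-fold, and against NL20 121-fold and 24.3-fold. The comparison of osimertinib-resistant with plain NCI-H1975 cells chose the pair, so these ratios are a description. Over all circRNAs tested, edgeR called 2.52% in that comparison.

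**Figure D1:**
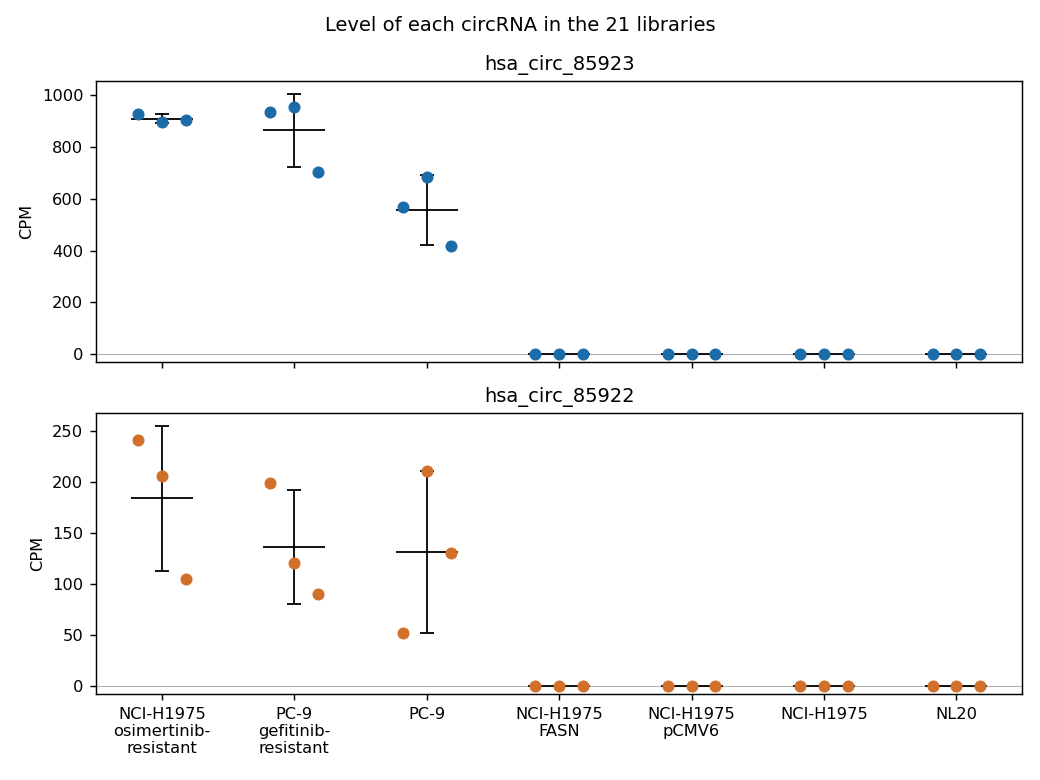
CPM (TMM-scaled counts per M reads, y axis) of hsa_circ_85923 (top) and hsa_circ_85922 (bottom) in each library of the 7 groups (x axis); points are libraries, bars the mean ± SD (n = 3). Both circRNAs were read in every library of the 3 groups on the left and in none of the 12 libraries on the right.

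Levels were next compared among the groups that hold the pair, as CPM, which are counts per M (mega) reads in the tested circRNAs scaled by TMM, edgeR's trimmed mean of M values. hsa_circ_85923 stood at 909.6 ± 16.6 CPM in osimertinib-resistant NCI-H1975 (SD, n = 3), at 864.2 ± 140.4 in gefitinib-resistant PC-9 and at 556.5 ± 134.8 in PC-9. The order was the same in raw reads per 100000 reads of a library, with 68.1 ± 2.23 in osimertinib-resistant NCI-H1975, 66.2 ± 11.7 in gefitinib-resistant PC-9 and 41.2 ± 7.95 in PC-9. The SD in the osimertinib-resistant group, 1.83% of its mean, is below the 10.6% that counting alone gives at this depth, so it does not measure how closely the level is known. By library, the values were 927.9, 895.4 and 905.5 CPM in osimertinib-resistant NCI-H1975, 936.6, 953.5 and 702.4 in gefitinib-resistant PC-9, and 567.6, 685.5 and 416.6 in PC-9. Every library of both resistant groups lay above every PC-9 library, and the resistant groups overlapped each other.

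hsa_circ_85923 did not pass edgeR's quasi-likelihood test in any of the 3 comparisons of these groups. Osimertinib-resistant NCI-H1975 against PC-9 gave a log2 difference of 0.70 ± 0.31 (SE; 95% interval 0.091 to 1.30) and an edgeR adjusted p of 0.0998. Over all 9175 circRNAs tested, 18.4% were called between these 2 lines. A larger absolute log2 difference was found for 66.6% of the 9175, circRNAs with few reads included. Without osimertinib-resistant replicate 2 the log2 difference was 0.73 and the edgeR adjusted p 0.162. The call depended on the fit: with the 6 libraries of this comparison fitted alone, the log2 difference was 0.79 and the edgeR adjusted p 0.0165. Gefitinib-resistant PC-9 against PC-9 gave a log2 difference of 0.62 ± 0.31 (95% interval 0.014 to 1.23) and an edgeR adjusted p of 0.429, in a comparison in which 1.35% of circRNAs were called. Here too the adjusted p depended on the fit. The edgeR adjusted p was 0.0618 with the 6 libraries fitted alone (log2 0.67) and 0.768 without PC-9 replicate 3 (log2 0.45). The comparisons of both resistant groups with PC-9 share the PC-9 libraries. Between osimertinib-resistant NCI-H1975 and gefitinib-resistant PC-9, where 14.6% were called, the log2 difference was 0.074 ± 0.30 and the edgeR adjusted p 0.91. Its 95% interval, -0.52 to 0.67, leaves room for a difference of either sign. The log2 difference was 0.105 without osimertinib-resistant replicate 2, and without gefitinib-resistant replicate 3 the sign turned, at -0.051.

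hsa_circ_85922 stood at 184.5 ± 71.2 CPM in osimertinib-resistant NCI-H1975 (SD, n = 3), at 136.7 ± 56.0 in gefitinib-resistant PC-9 and at 131.3 ± 79.9 in PC-9. The SDs are larger than the differences between these means. Its log2 difference was 0.46 ± 0.68 (SE; 95% interval -0.88 to 1.80) for osimertinib-resistant NCI-H1975 against PC-9, 0.43 ± 0.69 (-0.93 to 1.78) against gefitinib-resistant PC-9, and 0.032 ± 0.70 (-1.34 to 1.41) for gefitinib-resistant PC-9 against PC-9. The edgeR adjusted p was 0.699, 0.736 and 1 in that order. Without osimertinib-resistant replicate 2 the first 2 differences were 0.40 and 0.36. With any 1 library left out, they lay between 0.086 and 0.98 and between 0.20 and 0.82, and the third between -0.36 and 0.59. The 95% intervals are wide, so at these counts neither a like level nor a sizeable difference was shown.

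**Figure D2:**
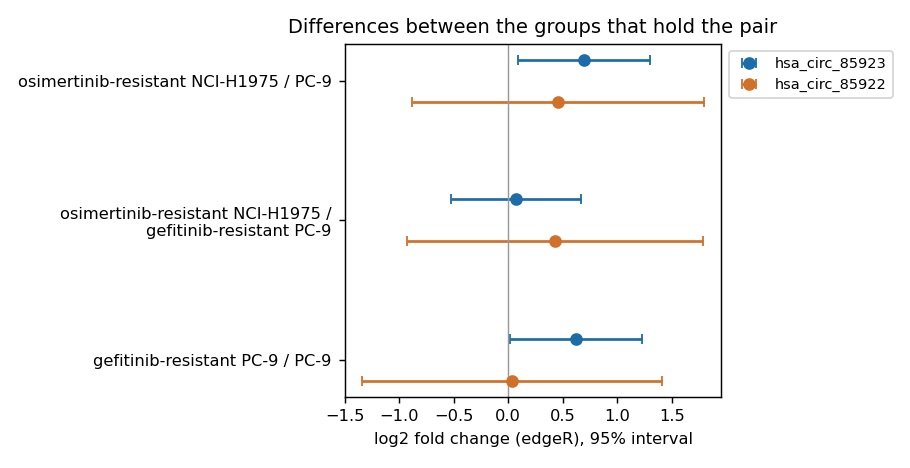
log2 fold change from edgeR (x axis) with its 95% interval for hsa_circ_85923 and hsa_circ_85922 in the 3 comparisons among groups that hold the pair (y axis; first group over second). The intervals of hsa_circ_85923 against PC-9 lie just above 0, from 0.091 and from 0.014, without passing adjustment over all circRNAs, and the other intervals cross 0.

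The split of reads between both circRNAs was compared next, as the share of hsa_circ_85922 in the reads of the pair. This share rests on 2 junctions of the same library and does not depend on library scaling. It was 20.7%, 18.8% and 10.4% in osimertinib-resistant NCI-H1975 replicates 1 to 3, 17.5%, 11.2% and 11.4% in the gefitinib-resistant PC-9 libraries, and 8.33%, 23.6% and 23.9% in PC-9. The lowest and the highest share were both of PC-9 libraries. The low end of PC-9 was replicate 1 alone, with 5 of 60 reads, and its other 2 libraries lay above every library of the other groups. Expressed as a ratio, hsa_circ_85923 had between 3.83 and 8.64 reads for each read of hsa_circ_85922 in osimertinib-resistant NCI-H1975 libraries, between 4.71 and 7.91 in gefitinib-resistant PC-9 and between 3.18 and 11.0 in PC-9. Over all 9 libraries, 16.5% of the pair's reads were of hsa_circ_85922 (95% Wilson interval 14.1% to 19.2%, counting error only). hsa_circ_85923 was the higher of the pair in 9 of 9 libraries.

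**Figure D3:**
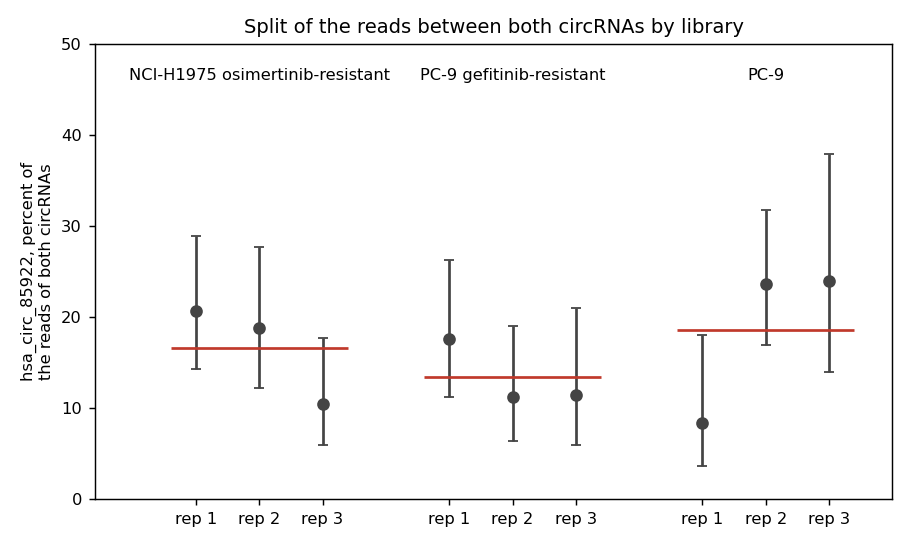
Share of hsa_circ_85922 in the reads of both circRNAs, in percent (y axis), in each library of the 3 groups that hold them (x axis). Points are libraries with 95% Wilson intervals, which cover counting error only, and red lines are group means. Shares ran from 8.33% to 23.9%, and both ends of this range are PC-9 libraries.

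The share averaged 16.6% ± 5.48 in osimertinib-resistant NCI-H1975 (SD, n = 3), 13.4% ± 3.58 in gefitinib-resistant PC-9 and 18.6% ± 8.90 in PC-9. The groups accounted for 14.5% of the variance of the share among the 9 libraries (exact permutation test over 1680 arrangements, p = 0.571). Without PC-9 replicate 1 this was 60.3% (exact permutation p = 0.0964), and without osimertinib-resistant replicate 2 it was 14.8%. In pairs of groups, the difference was -2.00 percentage points for osimertinib-resistant NCI-H1975 minus PC-9 (exact two-sided permutation p = 0.6), 3.21 for osimertinib-resistant NCI-H1975 minus gefitinib-resistant PC-9 (exact permutation p = 0.4), and -5.21 for gefitinib-resistant PC-9 minus PC-9 (exact permutation p = 0.4). Adjusted over the 3 pairs, each exact permutation p was 0.6, and 3 libraries against 3 cannot go below 0.1. Without osimertinib-resistant replicate 2 the first of these differences was -3.07 points and the second 2.14. With any 1 library of a pair of groups left out, the second lay between 1.17 and 6.33 points and the third between -10.4 and -2.56. The first turned positive, to 1.11, 0.48 and 0.65 points, without osimertinib-resistant replicate 3, PC-9 replicate 2 and PC-9 replicate 3.

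Reads pooled over the 3 libraries of a group give the counting error of the split, without the spread between libraries. hsa_circ_85922 made up 53 of 318 reads in osimertinib-resistant NCI-H1975 (16.7%, 95% Wilson interval 13.0% to 21.2%), 36 of 265 in gefitinib-resistant PC-9 (13.6%, 9.98% to 18.2%) and 45 of 229 in PC-9 (19.7%, 15.0% to 25.3%). The odds of a pair read being hsa_circ_85922 were 0.818 times those of PC-9 in osimertinib-resistant NCI-H1975, with a 95% conditional interval of 0.515 to 1.30. The odds ratio was 1.27 (0.786 to 2.08) for osimertinib-resistant NCI-H1975 over gefitinib-resistant PC-9 and 0.643 (0.386 to 1.07) for gefitinib-resistant PC-9 over PC-9. A ratio of 1 lies inside each of the 3 intervals. The intervals compare these libraries and hold counting error alone, because pooling leaves out the spread between libraries. PCR copies of a molecule, if counted as separate reads, are not allowed for either.

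Whether other circRNAs of PC-9 were read in the osimertinib-resistant libraries was examined with a list that neither these nor the plain NCI-H1975 libraries had chosen. The 304 circRNAs of the list had at least 20 reads over the 6 PC-9 libraries, gefitinib-resistant ones included, and none in the 6 pCMV6 and FASN libraries. The pair is on the list and 79 of the 304 had a read in osimertinib-resistant cells. Of the other 302, 77 (25.5%, 95% Wilson interval 20.9% to 30.7%) had a read in osimertinib-resistant cells and 66 (21.9%, 17.6% to 26.9%) in plain NCI-H1975 cells, from 390279 reads in osimertinib-resistant and 457466 in plain NCI-H1975 libraries. NL20 read 117 of the 302, so the list is not particular to PC-9. Without osimertinib-resistant replicate 2, 67 of the 302 were read in that group. At least 20 reads were reached by 2 of the 302 in osimertinib-resistant cells, hsa_circ_63375 with 33 and hsa_circ_63103 with 21, named after their values were seen, and by 0 in plain NCI-H1975 cells.

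The pair made up 46.8% of all reads of that list in osimertinib-resistant cells, 318 of 680, and 2.58% of them in the PC-9 libraries. Reads in osimertinib-resistant cells were part of the choice of the pair, so its share there is a description. With the pair set aside, the other 302 circRNAs together had between 87.8 and 96.0 reads per 100000 in osimertinib-resistant libraries, between 2304 and 2450 in gefitinib-resistant PC-9, between 2264 and 2531 in PC-9, between 37.1 and 46.4 in plain NCI-H1975 and between 543 and 574 in NL20. The osimertinib-resistant libraries thus lay above the plain NCI-H1975 ones and below those of NL20 and of PC-9. hsa_circ_104535, the circRNA of the list with the most PC-9 reads, had 274, 372 and 299 reads in gefitinib-resistant PC-9, 300, 567 and 306 reads in PC-9, and 0 in each osimertinib-resistant library. hsa_circ_60454, the next, had 458 reads in the gefitinib-resistant PC-9 libraries, 206 in those of PC-9, 997 in NL20 and 0 in osimertinib-resistant cells. In all, 4 circRNAs of the list had more PC-9 reads than the 413 of hsa_circ_85923, and all 4 had 0 reads in osimertinib-resistant cells. At lower counts, some circRNAs reached or passed their PC-9 level in osimertinib-resistant cells. Per 100000 reads, hsa_circ_63375 stood at 8.46 there and 3.09 in the PC-9 libraries, and hsa_circ_63103 at 5.38 and 3.22.

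**Figure D4:**
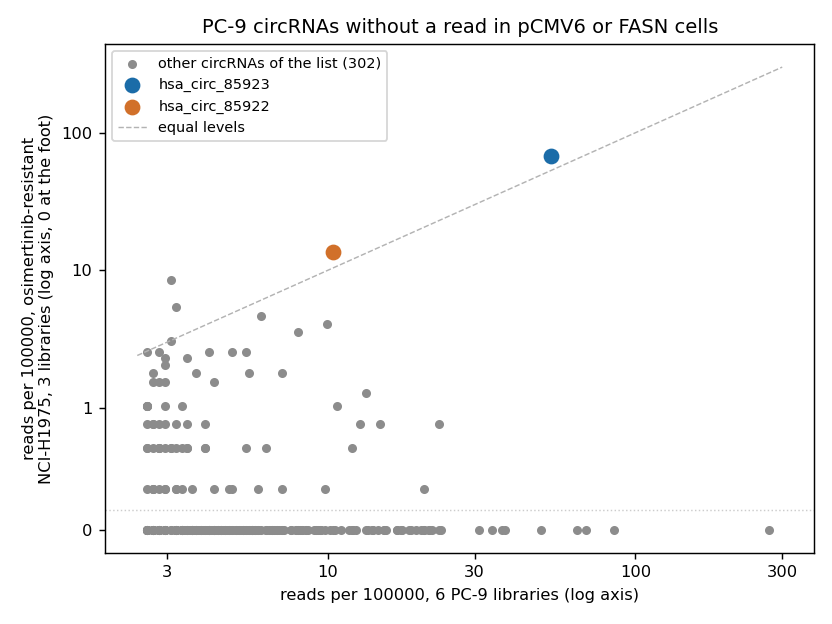
Reads per 100000 in the 3 osimertinib-resistant NCI-H1975 libraries (y axis, log, with 0 drawn at the foot) against those in the 6 PC-9 libraries, gefitinib-resistant ones included (x axis, log), for 304 circRNAs with at least 20 PC-9 reads and none in pCMV6 or FASN cells. Each point is a circRNA and the dashed line marks equal levels. hsa_circ_85923 and hsa_circ_85922, which were chosen for reads in both lines, lie near it, and the 4 circRNAs to the right of hsa_circ_85923 lie at 0. A place near the line is not particular to the pair. At lower levels hsa_circ_63375 and hsa_circ_63103 lie above it, and some other circRNAs with few reads lie near it.

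The osimertinib-resistant libraries also held most circRNAs of a matching list for NCI-H1975. Its 142 circRNAs had at least 20 reads over the pCMV6 and FASN libraries and none in the 6 PC-9 libraries. Osimertinib-resistant cells read 135 of them (95.1%), or 131 without replicate 2, and plain NCI-H1975 cells all 142. Their summed level was between 842 and 900 reads per 100000 in osimertinib-resistant libraries and between 1318 and 1352 in plain NCI-H1975. In the libraries that chose the list it was between 1104 and 1206 for pCMV6 and between 1423 and 1496 for FASN. NL20 read 78 of the 142 (54.9%), at between 382 and 470 reads per 100000, so this list is not particular to NCI-H1975. hsa_circ_6671, with the most plasmid-library reads of that list, stood at 2085 ± 458 CPM in osimertinib-resistant cells (SD, n = 3), 5482 ± 522 in FASN, 1758 ± 327 in pCMV6 and 5173 ± 291 in plain NCI-H1975 cells. It alone supplied 599 of the 3378 reads of the list in osimertinib-resistant cells and 1766 of 6130 in plain NCI-H1975 cells. hsa_circ_10548, the next, stood at 928.7 ± 158.2 CPM in osimertinib-resistant and 1323 ± 237 in plain NCI-H1975 cells, and at 237.7 ± 133.9 in NL20. Of 36 circRNAs read at least 20 times in NL20 and in no PC-9, pCMV6 or FASN library, osimertinib-resistant cells read 2 and plain NCI-H1975 cells read 4.

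The pair was picked for its presence and absence, so the number of circRNAs that share this pattern is given as a description. Only 3 circRNAs were read in all 9 libraries of osimertinib-resistant NCI-H1975, gefitinib-resistant PC-9 and PC-9 and in none of the other 12, and the pair supplied 2 of them. The third, hsa_circ_87071, named after its values were seen, had 3, 1 and 1 reads in osimertinib-resistant cells, 4, 14 and 5 in gefitinib-resistant PC-9 and 37, 14 and 29 in PC-9, so it was scarce in osimertinib-resistant libraries where the pair was not. The same count with another group in the place of the osimertinib-resistant cells was 0 for FASN, 0 for pCMV6, 1 for plain NCI-H1975 and 20 for NL20. With at least 20 reads in osimertinib-resistant cells and none in FASN, pCMV6 and plain NCI-H1975 cells there were again 3 circRNAs, hsa_circ_85923, hsa_circ_85922 and hsa_circ_63375, the last with 33 reads. All 3 were read in PC-9, which for the pair was part of the choice. hsa_circ_63375 had 24 reads in the PC-9 libraries and 6 in NL20.

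hsa_circ_85922 was also the circRNA whose levels across the 21 libraries were most like those of hsa_circ_85923. The Pearson correlation of log2 CPM between them was 0.97. This is a description, since both were chosen for reads in PC-9 and osimertinib-resistant cells and none in NCI-H1975 cells without the resistance. The 3 next in likeness among the 9175 tested were hsa_circ_8726 (0.96), hsa_circ_13024 (0.92) and hsa_circ_6996 (0.91). Unlike the pair, these had reads in every group. hsa_circ_8726 stood at 815.7 ± 85.7 CPM in osimertinib-resistant NCI-H1975 (SD, n = 3), 939.1 ± 55.2 in gefitinib-resistant PC-9 and 970.6 ± 62.8 in PC-9, and at 346.4 ± 23.0 in FASN, 285.2 ± 32.7 in pCMV6, 359.0 ± 45.9 in plain NCI-H1975 and 285.9 ± 55.2 in NL20 cells. hsa_circ_13024 stood at 242.5 ± 61.7 CPM in osimertinib-resistant and 29.4 ± 25.8 in plain NCI-H1975 cells. hsa_circ_6996 stood at 189.7 ± 103.4 CPM in osimertinib-resistant and 13.4 ± 23.3 in plain NCI-H1975 cells. These circRNAs were picked for their likeness and were not tested.

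**Figure D5:**
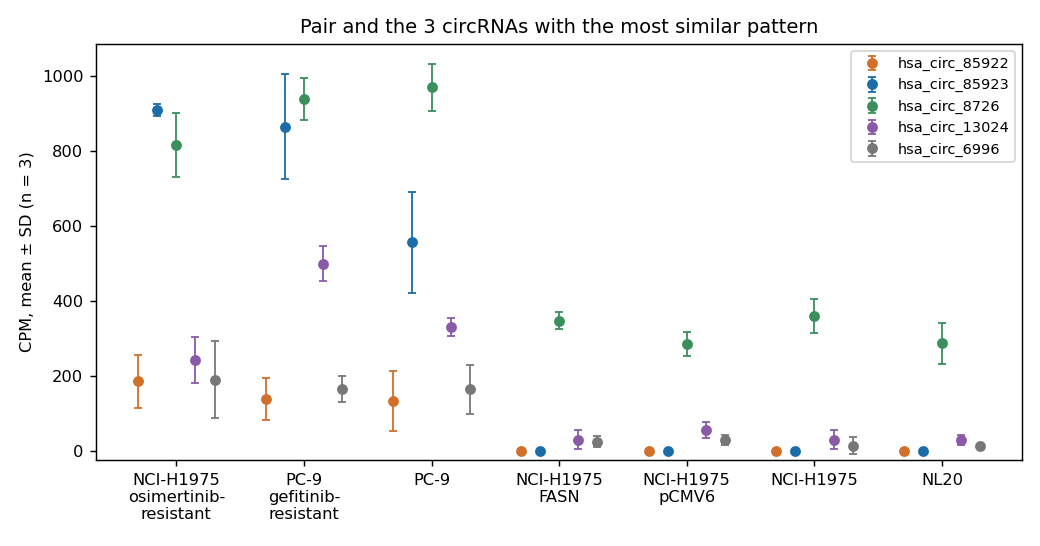
CPM (y axis, mean ± SD, n = 3) in the 7 groups (x axis) of hsa_circ_85922, hsa_circ_85923 and the 3 circRNAs whose log2 CPM correlated most with that of hsa_circ_85923 over 21 libraries. All 5 are higher in the 3 groups on the left than in the 4 on the right; hsa_circ_85922 and hsa_circ_85923 alone among them are at 0 on the right.

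The pair also stands together in the table, in consecutive rows. The order of the rows is not explained in the sources used here, so it gives no position. The circRNAs numbered before and after the pair, hsa_circ_85921 and hsa_circ_85924, had 2 reads and 1 read in all. None of the 10 rows before and the 10 rows after the pair had over 15 reads over all libraries or passed the filter on low counts. Of these 20 circRNAs, 4 had a read in osimertinib-resistant cells and 10 in the PC-9 libraries.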

How the data were processed

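The authors deposited whole-number read counts per circRNA for 21 libraries, without normalization, per the file header and values; each column was matched to a sample by its title code. Per the submitters' processing notes, build hg38, HISAT2 and DESeq2 were named without role or version; which program called circRNAs, and with what filters and annotation, is not given in the sources used here. Reads of junctions shared by similar genes could be placed differently by another caller.

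Tests were run with edgeR 4.0.16 in R 4.3.3. Its filterByExpr (minimum count 5, minimum total 15) kept 9175 circRNAs (7.39%), both members among them through the groups where they are high. A TMM-scaled quasi-likelihood model with 7 group means was fitted to all libraries, and p-values were adjusted by Benjamini and Hochberg over all circRNAs tested. A call is an adjusted p under 0.05. The code was tested on simulated data. SE is the log2 change over the root of F. log2 CPM used a prior count of 2. Shares were compared by exact permutation (SciPy 1.17.1). DESeq2 1.42.0 and other settings were alternatives. The members and lists were chosen with earlier results of these data known. The rule for other names was: the 3 circRNAs most like hsa_circ_85923, the 2 with most reads of the PC-9 and of the NCI-H1975 list, and the neighbouring numbers. No gene, coordinate or sequence was assigned, as the table pairs identifiers with none.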

Additional observations from a re-analysis of the deposited data

How the results depend on the processing

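In none of the 13 alternatives for each comparison did hsa_circ_85922 pass the test, and hsa_circ_85923 passed in 1, the fit of osimertinib-resistant NCI-H1975 and PC-9 libraries alone (log2 0.79, edgeR adjusted p 0.0165). Over its other alternatives the log2 difference of hsa_circ_85923 from PC-9 stayed between 0.58 and 0.85 in osimertinib-resistant NCI-H1975, and between 0.45 and 0.81 over all alternatives in gefitinib-resistant PC-9. With 1 library left out, hsa_circ_85922 ranged from -0.36 to 0.59 for gefitinib-resistant PC-9 against PC-9, and hsa_circ_85923 from -0.051 to 0.16 for osimertinib-resistant NCI-H1975 against gefitinib-resistant PC-9. The share of hsa_circ_85922 ranged from -7.14 to 1.11 points for osimertinib-resistant NCI-H1975 minus PC-9; without PC-9 replicate 1 the groups accounted for 60.3% of its variance (exact permutation p = 0.0964).

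Counts of calls moved more. For gefitinib-resistant PC-9 against PC-9, with 124 calls, there were 199 with DESeq2, 16 with no filter on low counts, 233 with the 6 libraries alone and 48 to 72 with a library left out. Without the filter, osimertinib-resistant NCI-H1975 gave 677 calls against PC-9 (1692 with it), 490 against gefitinib-resistant PC-9 (1339) and 53 against plain NCI-H1975 (231). With a library left out the last 2 were 856 to 1021 and 115 to 176. Leaving a library out also let more circRNAs through the filter.

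The replicate numbers showed no visible pairing of the libraries: deviations of same-numbered libraries correlated between -0.045 and 0.049. Counting error in the many circRNAs with few reads could hide a pairing, so this check cannot exclude one. With the replicate block, 111, 1554, 1221 and 208 circRNAs were called in these 4 comparisons, the log2 difference of hsa_circ_85923 between osimertinib-resistant NCI-H1975 and PC-9 was 0.73 (edgeR adjusted p 0.0951), and no call of a member changed.

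Of the PC-9 list with the pair included, osimertinib-resistant cells read 26.0%, against 25.5% without the pair. The alternatives for this list also include the pair. The percentage was 29.4% when the list needed at least 10 reads, 16.3% when it needed at least 50, and 14.1% when 3 reads were needed in osimertinib-resistant cells. Leaving out an osimertinib-resistant library, an alternative added after seeing the data, gave 18.4% to 22.7%. Of the NCI-H1975 list they read 77.7% when it needed at least 10 reads, 89.4% when 3 reads were needed, and 90.1% to 92.3% without a library. The precision of hsa_circ_85922 is limited by its 5 to 29 reads in the libraries that hold it, and its spread between libraries (38.6% to 60.9% of the mean in a group) was above counting error (23.8% to 28.9%).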

Other observations

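Osimertinib-resistant replicate 2 and pCMV6 replicate 1 have the same total, 110456 reads. They are not copies: the first holds 18 reads of hsa_circ_85922, 78 of hsa_circ_85923 and 15244 distinct circRNAs, and pCMV6 replicate 1 holds 0, 0 and 19494.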
